A study of Homo sapiens with 12 samples.

Results

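METAP1, TACC2, TCOF1 and LRRN2 each hold a region of open chromatin that was listed in every library of SMARCB1-expressing rhabdoid tumour cells and in no control library, and that ranked among the 5 strongest of the 13634 regions with this pattern. All peaks overlapping these 4 genes with 25 kb on each side were taken, which gave 368 of the 742200 listed peaks and 86 of the 187088 merged regions. The 4 strong regions are called the named peaks here, and the other 82 regions their neighbours. METAP1 held 8 regions, TACC2 48, TCOF1 17 and LRRN2 13. The genes were chosen by the measured strength of their named peak (its fold percentile within each SMARCB1 list) and by its presence in 6 of 6 SMARCB1 and 0 of 6 GFP lists, so the size of these peaks in SMARCB1 cells and their absence from control lists are described and not tested.

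The cells were G401, an established rhabdoid tumour line whose genotype is SMARCB1(-/-) in all 12 libraries. Doxycycline for 24 h induced either GFP, as the control, or SMARCB1, together with the vehicle DMSO or with dBRD9-A, a small molecule that degrades the protein BRD9. This gave 4 groups of 3 libraries: GFP DMSO, GFP dBRD9-A, SMARCB1 DMSO and SMARCB1 dBRD9-A. The labels name 1 cell line and number the replicates, but do not say whether these were separate cultures, so a p-value measures the spread between these libraries only. ATAC-seq uses a transposase that inserts adapters into accessible DNA, and the peak lists were made from fragments short enough to be free of a nucleosome.

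SMARCB1 is a core subunit of the canonical and PBAF forms of the SWI/SNF chromatin remodelling complexes, which move nucleosomes at enhancers and promoters, and its loss defines most rhabdoid tumours. BRD9 belongs to the non-canonical form, which contains no SMARCB1. METAP1 encodes a methionine aminopeptidase, which removes the initiator methionine from new proteins. TACC2 encodes a coiled-coil protein of the centrosome and mitotic spindle. TCOF1 encodes treacle, a nucleolar protein needed for ribosomal RNA gene transcription and mutated in Treacher Collins syndrome, and LRRN2 encodes a membrane protein with leucine-rich repeats. The peak lists do not measure the RNA of these genes.

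Of the 4 named peaks, none lay at the 5′ end of its gene interval, and the promoters of METAP1 and LRRN2 differ in what the lists held at that end. A peak spanned the METAP1 5′ end in all 12 lists, whereas no list had a peak at the LRRN2 5′ end. Their RefSeq promoters are shown for this difference, each from 250 bases before to 50 bases after the start of the gene, 5′ to 3′ on the strand of the gene. They are in GRCh38.p14, at chr4:98995471-98995770 on the plus strand and chr1:204685689-204685988 on the minus strand, and were not mapped onto the hg19 peaks. Capitals mark the GC box GGGCGG on either strand.
METAP1 promoter: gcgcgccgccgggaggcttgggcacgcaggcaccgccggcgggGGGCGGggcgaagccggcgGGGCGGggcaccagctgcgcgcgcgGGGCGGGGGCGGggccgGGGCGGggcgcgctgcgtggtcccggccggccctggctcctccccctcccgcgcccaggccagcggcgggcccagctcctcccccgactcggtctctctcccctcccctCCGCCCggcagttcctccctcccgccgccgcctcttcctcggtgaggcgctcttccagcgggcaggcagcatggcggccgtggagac
LRRN2 promoter: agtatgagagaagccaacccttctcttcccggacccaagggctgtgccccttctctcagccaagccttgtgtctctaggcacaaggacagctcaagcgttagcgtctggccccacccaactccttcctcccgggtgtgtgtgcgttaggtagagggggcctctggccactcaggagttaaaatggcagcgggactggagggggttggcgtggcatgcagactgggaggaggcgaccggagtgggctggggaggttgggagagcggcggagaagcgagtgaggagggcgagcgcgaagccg

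The METAP1 window had a GC content of 82.3% and held 42 CpG dinucleotides and 6 copies of GGGCGG, counting both strands. The LRRN2 window had a GC content of 63.3%, 16 CpG dinucleotides and no copy of GGGCGG. Over all 35116 RefSeq windows of 300 bases, 45.0% held GGGCGG on either strand, the median window had 14 CpG dinucleotides and the median GC content was 58.7%. Fewer CpG dinucleotides than at METAP1 were found in 94.2% of the windows, and fewer than at LRRN2 in 52.5%. These letter matches are a description of the windows and do not show that a factor binds there. RefSeq windows were matched for 3 of the 4 genes, with 4 windows for TACC2, and TCOF1 was not matched. From 5′ to 3′ the TACC2 windows held 8, 13, 34 and 32 CpG dinucleotides and 0, 1, 0 and 1 copies of GGGCGG. A link between promoter sequence and the peaks was not tested.

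The lists of SMARCB1 libraries were longer than those of GFP libraries. The ranges of the measures of depth overlapped, though background pileup was mostly higher in SMARCB1 libraries. SMARCB1 lists held 71169 to 96572 peaks, and GFP lists 33428 to 50089. Read totals were not in the lists, so depth was judged from the lowest background pileup, that is the number of fragments expected by chance at a position. It was 0.0487 to 0.111 fragments in SMARCB1 libraries and 0.0383 to 0.0784 in GFP libraries. Apart from dBRD9-A replicate 2, the SMARCB1 libraries had at least 0.072. Apart from DMSO replicate 1 and dBRD9-A replicate 3, the GFP libraries had at most 0.0446. The geometric mean summit pileup of the regions in all 12 lists was 12.9 to 20.5 fragments in SMARCB1 and 12.8 to 23.2 in GFP libraries. The SMARCB1 dBRD9-A library of replicate 2 was the shallowest SMARCB1 library by both measures. The part of depth and of list length in the presence counts was tested only through the alternative lists given beside them.

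The METAP1 peak had the highest mean fold rank of all SMARCB1-only regions. It lay at chr4:99981347-99981754 (hg19), 408 bp long, inside the gene interval and 2.21 kb before its 3′ end. The summit pileup, which is the number of fragments stacked at the highest point, was 68, 51 and 57 in SMARCB1 DMSO replicates 1 to 3 and 75, 39 and 58 in SMARCB1 dBRD9-A replicates 1 to 3. The 2 groups overlapped, and the highest and the lowest value were both in dBRD9-A libraries. The fold enrichment over local background, as given by the authors' peak caller, was 26.6 to 35.6. The deposited −log10 q ran from 54.4 to 99.9, and by fold the peak ranked between 25th and 158th in its lists.

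The TACC2 peak had the highest summit pileup of the 4 in any library, at 89 fragments. It lay at chr10:123942662-123942983, 322 bp long and inside the gene interval, 194.0 kb from its 5′ end. Its summit pileup was 63, 38 and 89 in the SMARCB1 DMSO replicates and 71, 39 and 83 in the SMARCB1 dBRD9-A replicates. Replicate 2 was the lowest and replicate 3 the highest in both groups. Its fold was 22.8 to 35.0 and its rank within the list ran from 29 to 1123. The summit moved by only 5 bp across the 6 lists, the narrowest range of the 4 peaks.

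The TCOF1 peak was the narrowest. It lay at chr5:149757574-149757821, 248 bp long, 20.4 kb from the 5′ end and 22.1 kb from the 3′ end of the gene interval. Its summit pileup was 55, 43 and 41 in the SMARCB1 DMSO replicates and 55, 40 and 65 in the SMARCB1 dBRD9-A replicates, again with overlapping groups. Its fold was 22.9 to 30.8. Within single lists it was 140 to 212 bp wide, and only 4.38% to 9.2% of peaks whose pileup was within 10% of its own were narrower. The median width of those peaks of like height was 328 to 382 bp.

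The LRRN2 peak lay at chr1:204592495-204592908, 414 bp long, inside the gene interval and 6.19 kb from its 3′ end, since LRRN2 is on the minus strand. Its summit pileup was 57, 50 and 54 in the SMARCB1 DMSO replicates and 66, 30 and 59 in the SMARCB1 dBRD9-A replicates. The 3 DMSO values lay inside the range of the dBRD9-A values, whose lowest came from the shallowest SMARCB1 library. Its fold was 18.4 to 29.4 and its rank ran from 227 to 1430. At METAP1, 19.4% to 46.0% of peaks of like height were narrower, against 12.9% to 55.6% at TACC2 and 27.4% to 58.9% at LRRN2.

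The 4 genes changed order from library to library. METAP1 had the highest pileup of the 4 in SMARCB1 DMSO replicates 1 and 2 and dBRD9-A replicate 1, TACC2 in replicate 3 of both groups, and TCOF1 in dBRD9-A replicate 2. LRRN2 was first in no library. Mean within-list fold percentiles, on which the genes had been ranked, were 99.89 for METAP1, 99.69 for TACC2, 99.61 for TCOF1 and 99.35 for LRRN2, which held places 1, 2, 3 and 5. Place 4 went to chr22:24129357-24129451, a region of 95 bp with a mean percentile of 99.48. It lies in none of the 4 gene intervals, and whether its signal comes from open chromatin was not tested. The next region below LRRN2 was chr7:105416495-105416821 at 99.33, so these 2 were nearly level, and the region in place 4 ranked above LRRN2. Over all 13634 SMARCB1-only regions the median of this mean percentile was 61.8 and the median of the mean summit pileup was 9.33 fragments.

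Summit positions held closely across the 6 SMARCB1 lists. They ranged over 11 bp at METAP1, 5 bp at TACC2, 19 bp at TCOF1 and 27 bp at LRRN2. Among 307 regions with a like mean pileup, between 49.8 and 63.8 fragments, the median range was 26 bp and the middle 50% of regions lay between 12 and 111 bp. A smaller range than at TACC2 was found in 5.21% of those regions, and a smaller range than at LRRN2 in 51.5%. The local background under the named peaks was 8.86 to 17.0 times the lowest background of the library.

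**Figure D1:**
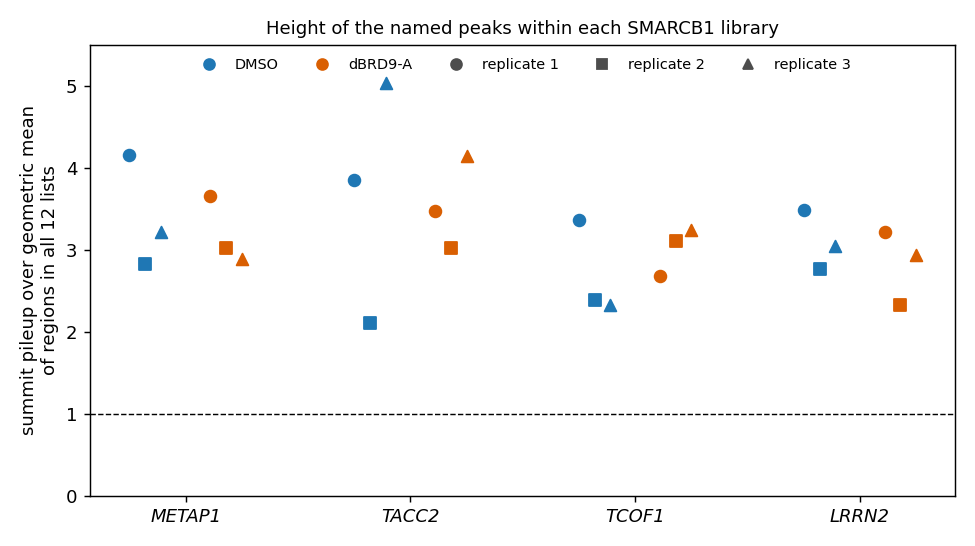
Summit pileup of each named peak (y axis, as a ratio to the geometric mean pileup of the 18114 regions with a peak in all 12 lists of the series) in the 6 SMARCB1 libraries, by gene, with colour for treatment and symbol for replicate. All 24 points lie above the dashed line at a ratio of 1, from 2.11 to 5.03, and the 2 treatments overlap at each gene.

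Compared with regions open in every library, the named peaks were high. Relative to the geometric mean pileup of the 18114 regions in all 12 lists, their ratio was 2.83 to 4.15 at METAP1, 2.11 to 5.03 at TACC2, 2.32 to 3.36 at TCOF1 and 2.32 to 3.48 at LRRN2. Between 90.9% and 99.9% of the shared regions of the same library had a lower pileup, and more than 98% in 18 of the 24 pairs of gene and library. The widest spread was at TACC2, where SMARCB1 DMSO replicate 2 gave the lowest of these ratios and replicate 3 of that group the highest.

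None of the 6 GFP lists had a peak at any of the 4 named positions. The authors' filter removed 196 to 427 peak numbers per list, but the numbers of the peaks flanking each position ran on without a gap in all 24 pairs of gene and GFP library, so no listed peak had been filtered out there. A weak signal could still go unlisted. At the local background of the named peak, scaled to each GFP library, a summit pileup of up to 5 fragments at METAP1, 6 at TACC2, 5 at TCOF1 and 6 at LRRN2 would not have passed the caller's threshold. That background was taken under the named peak in SMARCB1 libraries. At the lowest background of each GFP library the limit was 1 fragment at each gene. The GFP background at these positions is not in the lists. The nearest peak of any GFP list was 3.95 kb away at METAP1, 20.1 kb at TACC2, 9.96 kb at TCOF1 and 3.34 kb at LRRN2. The 4 named peaks stayed in 6 of 6 SMARCB1 and 0 of 6 GFP lists when lists were restricted to a −log10 q of at least 5, cut to 33428 peaks each, thinned to the same lowest background pileup of 0.0383, or rebuilt from summits extended by 100 bp in both directions. Restricting, cutting and thinning only remove peaks, so they could not add one to a GFP list. The named peaks had been chosen for strength, so they were unlikely to drop out of SMARCB1 lists. No support is taken from these settings.

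Within its interval the named peak had the highest fold in 22 of the 24 pairs of gene and SMARCB1 library. The 2 exceptions were both at TCOF1. By summit pileup the named peak was first in all 24 pairs, and by −log10 p in 23. The lead over the strongest other peak differed among the genes. As a ratio of folds it was 1.23 to 1.76 at METAP1, 1.37 to 2.29 at TACC2, 0.938 to 1.30 at TCOF1 and 2.95 to 4.88 at LRRN2, and the LRRN2 range did not overlap the others.

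**Figure D2:**
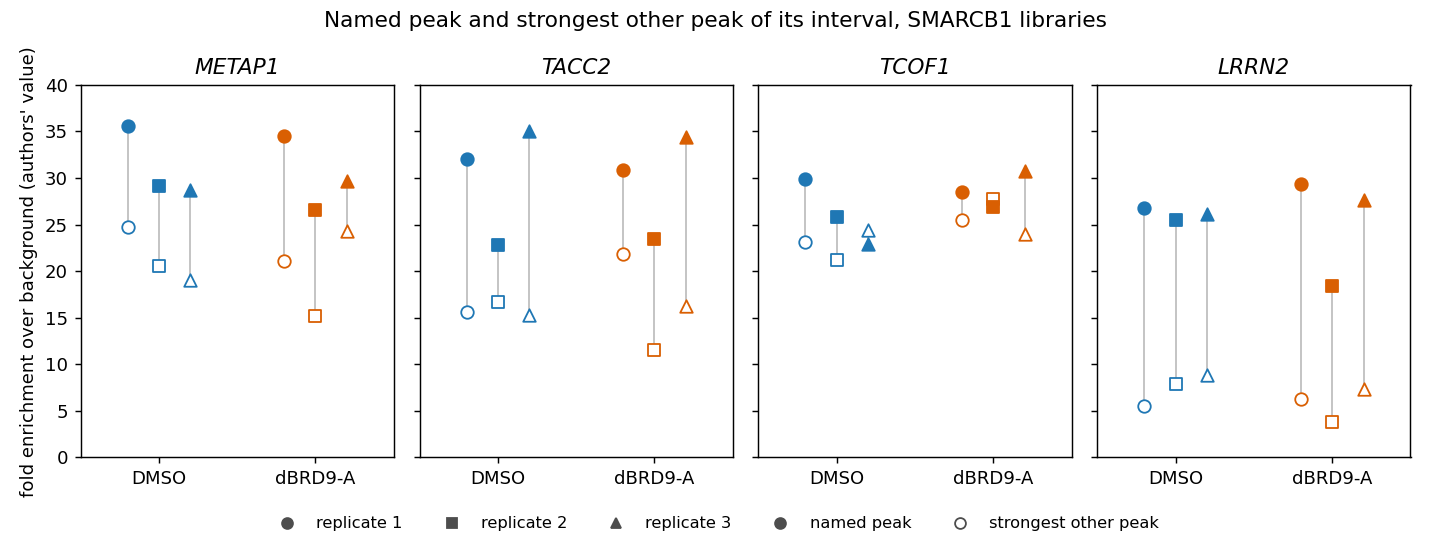
Fold enrichment over background as given by the authors' peak caller (y axis) for the named peak (filled) and the strongest other peak of the same interval (open) in each of the 6 SMARCB1 libraries, joined by a line per library. At LRRN2 the open symbols stay between 3.81 and 8.84, and at TCOF1 the order is turned in DMSO replicate 3 and dBRD9-A replicate 2.

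At METAP1 the strongest other peak was the one spanning the 5′ end of the interval, chr4:99916333-99916898, which was in all 12 lists. Its summit pileup was 34, 19 and 18 in GFP DMSO, 42, 39 and 32 in SMARCB1 DMSO, 23, 20 and 36 in GFP dBRD9-A and 38, 21 and 41 in SMARCB1 dBRD9-A replicates 1 to 3. In no SMARCB1 library did it reach the pileup of the named peak. The next SMARCB1-only region, chr4:99897954-99898290, lay 83.1 kb away before the gene with 10 to 14 fragments. A weak region between them and the named peak, chr4:99977303-99977395, went the other way: it was in 4 GFP lists with 2 to 5 fragments and in no SMARCB1 list, and was singled out after its values were seen.

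TACC2 is the longest of the 4 intervals at 265 kb and had the most neighbours, 47. Its strongest neighbour in all 12 lists, chr10:123872161-123872591, lay 70.1 kb from the named peak. The summit pileup there was 17, 7 and 8 in GFP DMSO, 18, 16 and 19 in SMARCB1 DMSO, 9, 7 and 17 in GFP dBRD9-A and 37, 8 and 26 in SMARCB1 dBRD9-A replicates 1 to 3. A region near the 5′ end of the interval, chr10:123748461-123748637, was in only 2 SMARCB1 lists and 1 GFP list and ended 52 bp before the interval. Beside the named peak, TACC2 had 7 further SMARCB1-only regions. The strongest of them, chr10:123900479-123900950, had 13, 6 and 21 fragments in SMARCB1 DMSO and 17, 7 and 26 in SMARCB1 dBRD9-A, with replicate 2 lowest in both groups, as at the named peak.

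At TCOF1 the close rival was chr5:149730188-149730366, which lay before the gene and was in all 12 lists. Its summit pileup was 42, 34 and 24 in GFP DMSO, 33, 30 and 37 in SMARCB1 DMSO, 26, 24 and 44 in GFP dBRD9-A and 42, 38 and 37 in SMARCB1 dBRD9-A replicates 1 to 3. Its fold of 24.4 in SMARCB1 DMSO replicate 3 and 27.7 in dBRD9-A replicate 2 passed that of the named peak. The region spanning the 5′ end of TCOF1, chr5:149736975-149737332, was also in all 12 lists, with 16 to 40 fragments in SMARCB1 libraries and 22 to 40 in GFP libraries. A smaller region 229 bp from the named peak, chr5:149757148-149757345, singled out after its values were seen, was in 5 SMARCB1 lists with 10 to 24 fragments and in no GFP list.

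LRRN2 had no neighbour in all 12 lists. The strongest peaks beside the named one held 3 to 10 fragments in SMARCB1 libraries. Its SMARCB1-only neighbours were chr1:204585815-204586028, with 4, 7 and 10 fragments in SMARCB1 DMSO and 5, 2 and 8 in SMARCB1 dBRD9-A, and chr1:204571305-204571653, with 3 to 6. Both lay beyond the 3′ end of the interval. The closest region to the 5′ end lay 2.65 kb from it and was in 1 list, and the closest in at least 2 lists lay 14.9 kb away. In GFP lists the LRRN2 interval with its flanks held 1, 0 and 0 peaks under DMSO and 0, 0 and 2 under dBRD9-A.

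**Figure D3:**
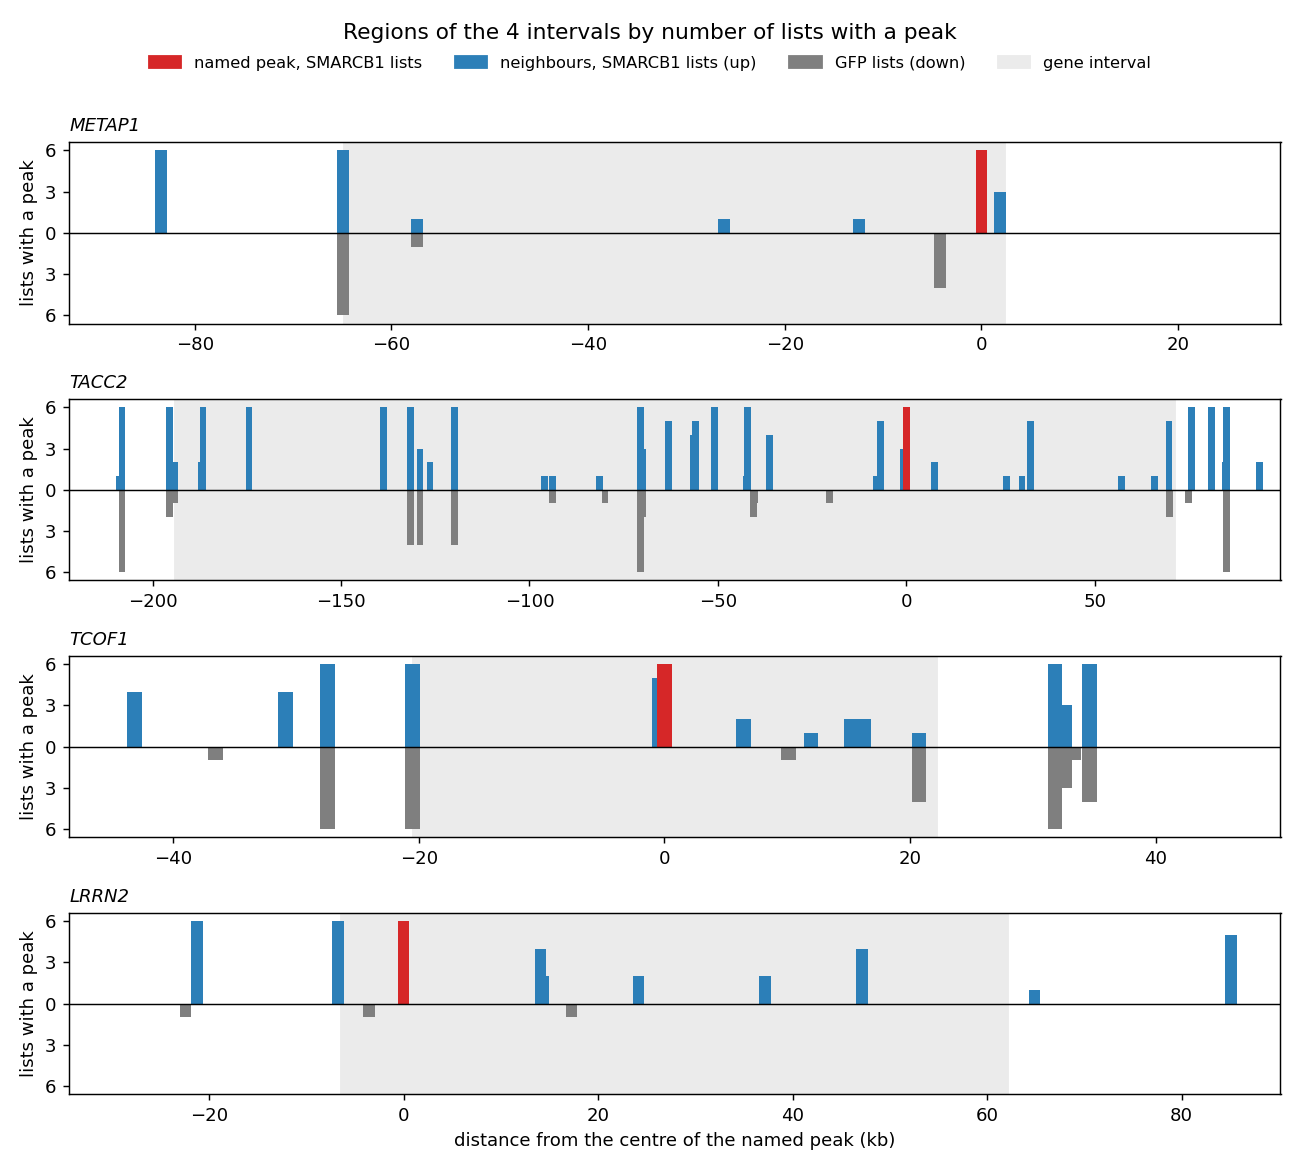
Regions of the 4 intervals by distance from the centre of the named peak (x axis, kb), with the number of SMARCB1 lists (up, 0 to 6) and GFP lists (down, 0 to 6) that have a peak there. Bars have a fixed width for visibility and do not show region length; the named peak (red) has 6 lists up and 0 down at each gene, and LRRN2 has no bar reaching 6 on both sides.

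The distance to steady open chromatin differed widely. The nearest region in all 12 lists lay 28.1 kb from the named peak at METAP1, 70.1 kb at TACC2, 20.2 kb at TCOF1 and 107.0 kb at LRRN2. Over all 13634 SMARCB1-only regions the median of this distance was 47.6 kb and the middle 50% lay between 17.4 and 121.0 kb, so each of the 4 fell inside the usual range. The nearest other SMARCB1-only region lay 83.1 kb away at METAP1, 41.7 kb at TACC2, 56.4 kb at TCOF1 and 6.47 kb at LRRN2.

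Of the 82 neighbours, 10 were SMARCB1-only in all lists, 7 were in all 12 lists, 41 were in 1 to 5 SMARCB1 lists and no GFP list, 13 were in GFP lists only and 11 were mixed. The 10 fell to METAP1 with 1, TACC2 with 7 and LRRN2 with 2, and TCOF1 had none. Among the 50 neighbours in 2 to 10 lists they made up 20%, beside 15.4% of all 88398 such regions of the series. The opposite pattern, all GFP and no SMARCB1 lists, was seen at no neighbour and at 0.131% of those regions. A peak in no GFP list was as common among neighbours (62.2%) as over all regions (62.3%), and a peak in all 12 lists was seen for 8.54% of neighbours and 9.68% of all regions. The contrast is the one that chose the genes, and nothing is read from these shares. The count of 10 fell to 1 with lists of equal length, which left only chr4:99897954-99898290 beside METAP1, to 3 in lists thinned to the same lowest background pileup and to 4 at a −log10 q of at least 5.

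Neighbour peaks per list were counted with the named peak left out, since the choice of genes had put it in every SMARCB1 and no GFP list. At TACC2 the interval with its flanks held 7 to 9 neighbour peaks in GFP lists and 17 to 28 in SMARCB1 lists, and at LRRN2 0 to 2 and 4 to 7, without overlap of the 6 and 6 lists. At METAP1 the counts were 2 to 3 in GFP and 3 to 5 in SMARCB1 lists, and at TCOF1 3 to 7 and 7 to 11, so the lists met at 3 and at 7 peaks. Summed over the genes, the mean was 16.0 ± 2.37 (SD, n = 6) in GFP and 41.3 ± 5.2 (SD, n = 6) in SMARCB1 lists. The ratio of SMARCB1 to GFP means was 1.24 at METAP1, 3.32 at TACC2, 1.53 at TCOF1 and 10.7 at LRRN2, against 2.18 for the whole lists. In lists cut to equal length the summed means of the neighbours were 13.7 in both GFP and SMARCB1 lists, with a difference of 0.0. These cut lists overlapped at TACC2, with 4 to 7 neighbour peaks in GFP and 6 to 7 in SMARCB1 lists. At LRRN2 they held 0 in GFP and 0 to 1 in SMARCB1 lists. The deposited lists did not overlap in length either, and the share of other intervals without overlap was not counted.

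**Figure D4:**
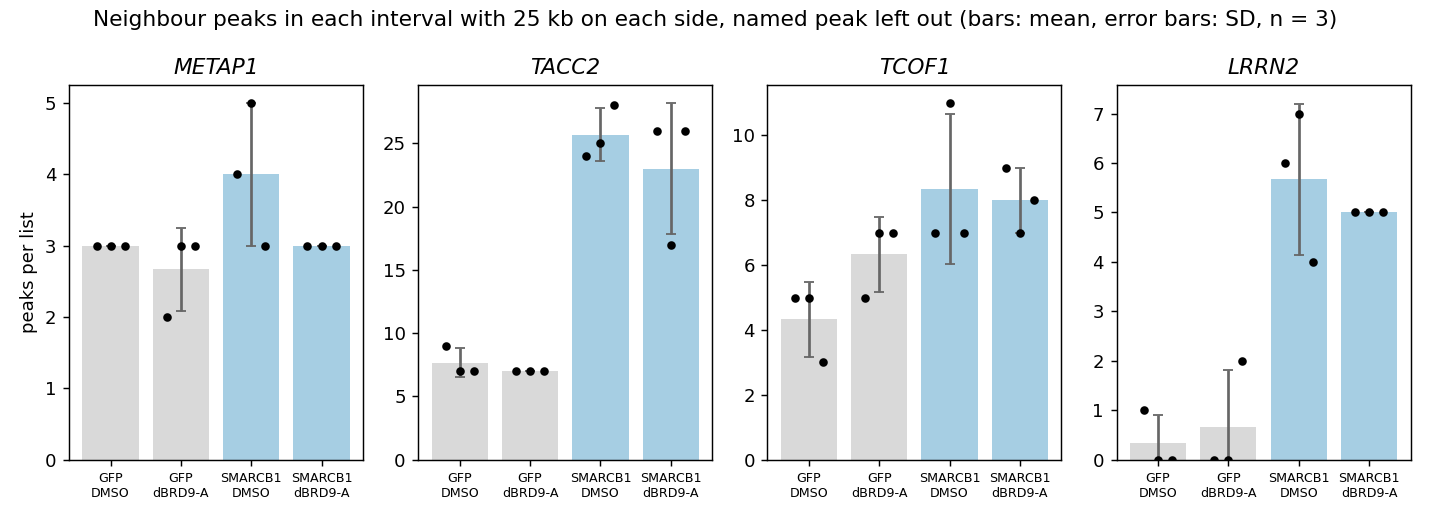
Neighbour peaks per list, without the named peak (y axis, scaled separately for each gene and starting at 0), in the 4 gene intervals with 25 kb on each side, by group; bars are means, error bars the SD of 3 libraries and points single libraries. The SMARCB1 points lie above all GFP points at TACC2 (17 to 28 against 7 to 9) and LRRN2 (4 to 7 against 0 to 2), and meet them at METAP1 and TCOF1. The lists are as deposited and differ in length. In lists cut to equal length the counts meet at TACC2 and LRRN2 too.

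The 7 neighbours in all 12 lists allow a comparison of height between SMARCB1 and GFP cells. Height was log2(summit pileup + 1) minus the mean of the same library over the 18114 shared regions. SMARCB1 minus GFP was positive at 4 and negative at 3 of the 7, with a median difference of 0.09 against −0.05 over all shared regions. Only the TACC2 neighbour chr10:123872161-123872591 was called, at a log2 difference of 0.74 (limma, adjusted p = 0.0285). Of all shared regions 7.67% were called higher and 4.19% lower in SMARCB1 cells. The METAP1 5′ region differed by 0.42 (limma, adjusted p = 0.0728), and the strongest TCOF1 neighbour by 0.10. Scaled to background pileup instead, the median over all regions moved to −0.65 and that of the 7 to −0.51, none was called higher and 4 were called lower, beside 2.36% and 71.0% of all shared regions; the TACC2 neighbour was then at 0.14.

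The effect of dBRD9-A on the named peaks was tested, since the choice of genes did not compare the treatments. That choice was not free of the treated libraries. It required a peak in every SMARCB1 DMSO and dBRD9-A list and ranked on the mean over both groups. A region lost or strongly weakened with dBRD9-A was therefore unlikely to be chosen, so the test is limited to peaks kept in both groups. In SMARCB1 cells none of the 4 passed. The heights in DMSO and dBRD9-A were 1.68 ± 0.27 and 1.60 ± 0.18 (SD, n = 3 each) at METAP1, 1.71 ± 0.63 and 1.74 ± 0.24 at TACC2, 1.34 ± 0.29 and 1.51 ± 0.14 at TCOF1, and 1.56 ± 0.16 and 1.42 ± 0.25 at LRRN2. The log2 difference, dBRD9-A minus DMSO, was −0.08 at METAP1 (95% interval −0.63 to 0.47), 0.03 at TACC2 (−0.69 to 0.74), 0.18 at TCOF1 (−0.37 to 0.72) and −0.14 at LRRN2 (−0.68 to 0.41). Unadjusted limma p-values were 0.757, 0.934, 0.498 and 0.591, and each adjusted p was 1.0.

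Over all 39492 regions listed in the 6 SMARCB1 libraries, limma called 0.0% at an adjusted p under 0.05, and 1104 regions (2.8%) had an unadjusted p under 0.05. None of the 4 named peaks was among the latter. Across all 13634 SMARCB1-only regions the median difference was −0.02 and the middle 50% lay between −0.21 and 0.19, a range that holds the 4 values. The intervals of the named peaks still allow changes of about the size of their own limits, so equal height under the 2 treatments was not shown. The sign at METAP1 turned to 0.07 without SMARCB1 DMSO replicate 1, and at TACC2 to −0.32 without SMARCB1 DMSO replicate 2 and to −0.09 without SMARCB1 dBRD9-A replicate 3.

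The named peaks were also set against their own neighbours within each library, a ratio in which depth cancels. At METAP1 the pileup was 1.62, 1.31 and 1.78 times that of its shared neighbour in SMARCB1 DMSO and 1.97, 1.86 and 1.41 times in SMARCB1 dBRD9-A replicates 1 to 3. At TACC2 it was 5.58, 3.08 and 6.08 times the geometric mean of the 3 shared neighbours under DMSO and 5.86, 5.29 and 6.59 times under dBRD9-A. At TCOF1 it was 2.56, 2.05 and 1.53 times under DMSO and 1.77, 2.06 and 2.14 times under dBRD9-A. The treatments overlapped at each gene, and at TACC2 the ratio was higher under dBRD9-A in each of the 3 same-numbered pairs.

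On the log2 scale the ratio differed by 0.15 at METAP1 (exact permutation p = 0.5, adjusted over 3 genes 0.75), by 0.32 at TACC2 (exact permutation p = 0.5, adjusted 0.75) and by −0.01 at TCOF1 (exact permutation p = 1.0, adjusted 1.0). These tests were two-sided and could not go below 0.1 with 3 against 3 libraries. With libraries paired by replicate number, the exact permutation p was 0.75 at METAP1, 0.25 at TACC2 and 1.0 at TCOF1, where 0.25 is the smallest that 3 pairs can give. LRRN2 had no shared neighbour within 25 kb. Against the nearest shared region on each side, chosen after the data had been seen, its log2 ratio was 2.04 ± 0.13 under DMSO and 2.0 ± 0.38 under dBRD9-A (SD, n = 3 each; exact permutation p = 0.9).

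Of the neighbours, 21 were listed in all 6 SMARCB1 libraries. Of these, 13 were higher and 8 lower with dBRD9-A, the median difference was 0.07 (−0.01 over all regions) and limma called 0, with 2 at an unadjusted p under 0.05. Both were at TACC2 and were singled out for this. At chr10:123822756-123823043 the pileup was 19, 19 and 19 in SMARCB1 DMSO and 11, 6 and 15 in SMARCB1 dBRD9-A, without overlap. The height difference was −0.87 (limma, unadjusted p = 0.00526, adjusted p = 1.0). At chr10:123734582-123734863 it was −0.71 (limma, unadjusted p = 0.0258, adjusted p = 1.0). With libraries paired by replicate number, the TACC2 neighbour chr10:123803933-123804120 also fell under 0.05. Its difference was 0.59 (limma with replicate block, unadjusted p = 0.046, adjusted p = 0.832). The share of all regions under 0.05 in the paired fit was not counted, so nothing is read from this neighbour. In GFP cells 7 neighbours were listed in all 6 libraries. There limma called 0 of them and 0.0% of 21043 regions, with 0 neighbours and 1482 regions (7.04%) at an unadjusted p under 0.05. The 7 differences ran from −0.21 to 0.36.

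**Figure D5:**
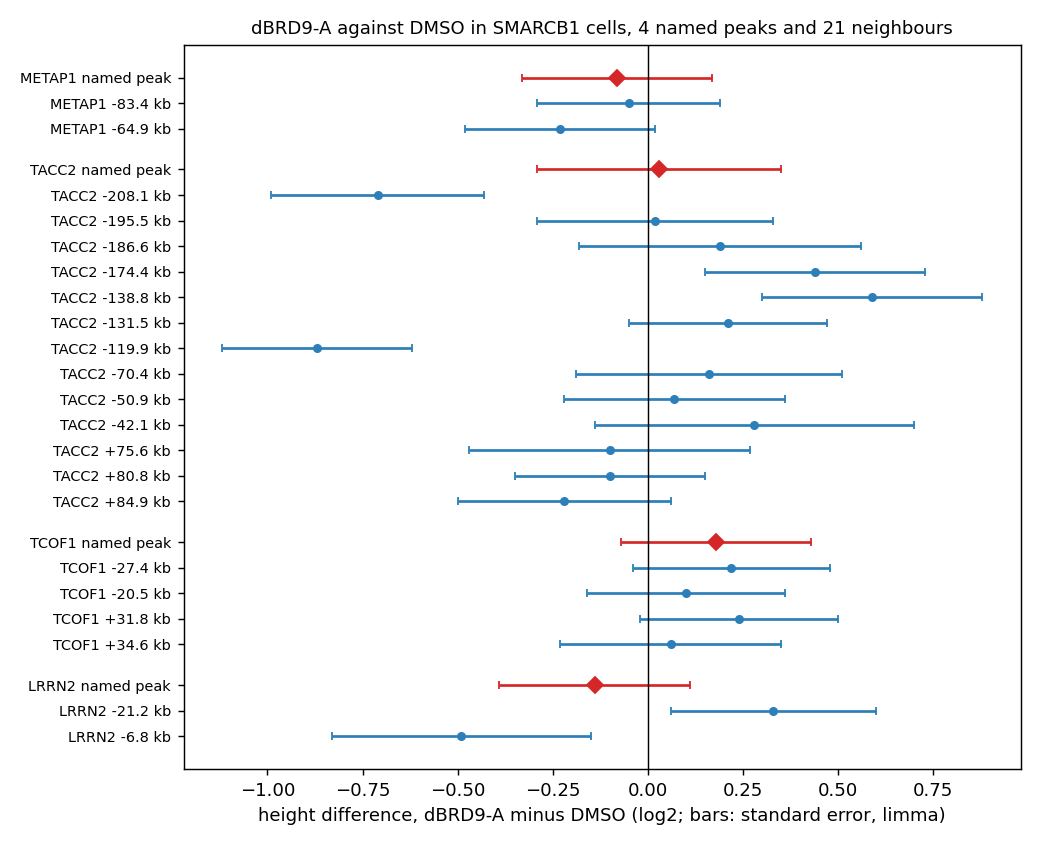
Height difference between dBRD9-A and DMSO in SMARCB1 cells (x axis, log2; bars are the limma standard error) for the 4 named peaks (diamonds) and the 21 neighbours (points), ordered by gene and by distance in kb from the named peak. The named peaks lie between −0.14 and 0.18, inside the −0.87 to 0.59 of the neighbours.

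Presence in the lists gave 1 neighbour that followed the treatment. The TACC2 region chr10:123813668-123813880 was in 3 of 3 SMARCB1 DMSO lists, with 4 fragments in each, and in 0 of 3 SMARCB1 dBRD9-A lists. Under GFP it was in 1 DMSO list with 12 fragments and in 3 dBRD9-A lists with 6, 6 and 5. It was 1 of 5 neighbours with a peak in 3 of the 6 SMARCB1 lists, beside 3.08% of 14475 such regions of the series, and its 4 fragments were close to the lowest pileup of 2 that the lists hold. The opposite pattern, present in each dBRD9-A and no DMSO list, was seen at 0 neighbours and at 3.44% of those regions. Among GFP lists, 1 neighbour had a peak in 3 of 6 and followed neither pattern, beside 4.3% and 4.81% of 5259 regions.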

How the data were processed

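The 12 peak lists, 1 per library, came from nucleosome-free fragments, per the labels. The submitters' processing notes name hg19, BWA 0.7.12-r1039, SAMtools 1.2, bedtools 2.24.0, MACS2 2.1.1.20160309, DiffBind and DESeq2, without settings or roles; the filter on the lists is not given in the sources used here. The deposited columns hold the authors' score (an integer, not used), the fold as a ratio of summit pileup to background, and −log10 p and −log10 q. The deposited summit offset gave each peak's summit position. Coordinates are 1-based.

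Summit pileup and background were recovered from the deposited fold and −log10 p as a Poisson tail with a pseudocount of 1. A whole number within 0.001 of the −log10 p was found for 100.0% of the 742200 peaks; for 1.9% another whole number also came within that tolerance and the nearest was kept. Precision is limited by these numbers of fragments. Peaks overlapping by at least 1 bp were merged. A library counted as present in a region where it had a peak. Heights were fitted with limma 3.58.1 (R 4.3.3) over all regions in 6 of 6 lists, Benjamini-Hochberg adjusted, threshold 0.05; ratios used exact permutation tests (scipy 1.17.1). The test of ratios was adjusted over 3 genes instead of the 4 planned, as LRRN2 had no shared neighbour. The limma step was tested on simulated data, in which the planted changes were larger than the interval limits of the named peaks. That test cannot show whether changes within those limits would have been called.

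The genes, lists and tests were chosen with earlier results of these data known. The named peak is the SMARCB1-only region of highest mean fold percentile in the interval. Neighbours named are, per gene, the strongest in all 12 lists, the one at the 5′ end, the next SMARCB1-only region and any called for treatment or following it in presence; others are marked as singled out. Correlations over regions between same-numbered DMSO and dBRD9-A libraries were 0.119, 0.236 and 0.218 in SMARCB1 cells. In GFP cells they were 0.053, 0.115 and 0.117. Different-numbered libraries were not compared in this way, so these values cannot show whether same-numbered libraries deviated together. The main tests did not use the pairing, and tests paired by replicate number are given as alternatives. Strands and promoters are from RefSeq (GRCh38.p14); exon or intron positions in hg19 were not analysed here.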

Additional observations from a re-analysis of the deposited data

How the results depend on the processing

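Of 143 alternative values over 14 results, 125 were scored as unchanged. For the named peaks under dBRD9-A this meant no change of sign and, for heights, no call gained. A difference of 0.00 was not scored as a change of sign. Counts, differences in counts and the median height difference were scored as unchanged within a set tolerance. The alternative rankings of the named peak were scored as unchanged whatever their value. With the replicate block, dBRD9-A minus DMSO stayed at −0.08, 0.03, 0.18 and −0.14 on the log2 scale at METAP1, TACC2, TCOF1 and LRRN2, and the pairing changed no call; the lowest adjusted p of a named peak or neighbour was then 0.821 (limma). With 1 library left out, the height difference ran from −0.20 to 0.07 at METAP1, −0.32 to 0.30 at TACC2, 0.08 to 0.34 at TCOF1 and −0.24 to 0.00 at LRRN2, and the difference in log2 ratio to neighbours from 0.03 to 0.30, 0.02 to 0.51 and −0.21 to 0.16 at the first 3 genes. That ratio reversed to −0.13 at TACC2 and 0.07 at TCOF1 with neighbours inside the gene interval only, and to 0.10 at TCOF1 within 50 kb. The 10 SMARCB1-only neighbours became 4 at −log10 q of at least 5, 1 at equal list length, 3 after thinning to the same lowest background pileup (which does not match the pileup of shared regions), 4 with presence by 50% cover and 5 inside the gene intervals only; without 1 library they were 10 to 15. The difference of 29.3 peaks per list between SMARCB1 and GFP over the 4 genes became 19.8, 4.0 and 18.5 under the first 3 of these, and 28.0 to 31.2 without 1 library; 4.0 of each are the named peaks, and without them it was 25.3, 15.8, 0.0 and 14.5. Scaling to background pileup moved the median of the 7 shared neighbours from 0.09 to −0.51 and the number called from 1 to 4. In these shifts the cause was not tested. The limma variance trend, the nearest shared regions on each side and leaving out the named peaks were chosen after seeing the data. No neighbour was called for dBRD9-A with any library left out; in GFP cells the trend called 45 regions of the series and the −log10 q filter 3, none a neighbour. Lists hold no value for a library without a peak, so weak regions could not be compared in height.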
